A study of Mus musculus with 12 samples.

Results

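The genes described here are 10 regulators that endothelial cells of blood vessels use: the Notch ligands Dll4 and Jag1, the receptor Notch1, the Notch target genes Hey1 and Hes1, the SoxF transcription factors Sox7, Sox17 and Sox18, and the inhibitors of differentiation Id1 and Id3. They were found by gene symbol among the probe sets of an Affymetrix array, where a probe set is a group of probes for 1 transcript. The 10 genes had 16 probe sets of 45037 in the table, and 15 of these passed the filter on low signal, at least 1 for every gene. The probe set standing for a gene was chosen by its mean signal over the 12 arrays, the highest being taken, and all 10 were among the 11862 genes tested. That mean signal is therefore not a finding. Hey1, Sox7 and Id3 had drawn notice in an earlier account of these data for lower signal after sepsis in the wild type, and the list was drawn up with such results known. The wild-type response to surgery is accordingly given as a description, with no p-value, and its calls are counted without being read as evidence. Where wild-type arrays enter a genotype comparison, these 3 genes are described and not counted. The genotype comparisons share arrays with the wild-type response, and the difference between the responses of the genotypes contains that response. The p-values of both for the other genes are therefore a description too.

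In Notch signalling a ligand on 1 cell binds a receptor on its neighbour, the receptor is cut, and its inner part enters the nucleus and switches on genes of the Hes and Hey families, which encode repressors. In vessels Dll4 and Jag1 act through Notch1 in sprouting and in the identity of arteries. The SoxF factors are made in endothelium, where they overlap in vessel growth, and Sox18 also acts in lymphatic vessels. Id proteins bind transcription factors of the basic helix-loop-helix class and keep them off DNA, and in endothelium they are induced by bone morphogenetic proteins (BMPs).

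Lung was taken 8 h after surgery from mice of 8 to 10 weeks, 3 samples in each of 4 groups, and RNA of each sample was hybridised to 1 array. The groups were mice labelled PPTA knockout after cecal ligation and puncture (CLP), mice so labelled after sham surgery, Balb/c wild-type mice after CLP, and Balb/c wild-type mice after sham surgery. CLP lets gut bacteria spill into the abdomen and is a model of sepsis, and PPTA refers to Tac1, which encodes the precursor of substance P. A strain is named for the wild type alone, so that strain and genotype cannot be told apart. The labels do not say whether the triplicates were separate animals, so p-values measure only the spread between these samples, which may be technical.

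The genotype label was not borne out by Tac1, the targeted gene. Its brighter probe set read 337 to 462 in knockout-labelled CLP and 379 to 530 in knockout-labelled sham, against 3.95 to 16.1 in wild-type CLP and 2.80 to 8.34 in wild-type sham. Where this probe set lies relative to the deleted sequence was not known here, and the direction of each genotype difference below is that of the labels. Array 3 of knockout-labelled sham differed from the other arrays of its group and is called the divergent sham array. Its summed signal of 7 macrophage markers was 9643, against 3287 and 3690 on the other sham arrays of that genotype, and its ciliated cell markers summed to 3530, against 5717 and 5817. In bulk tissue, fewer cells of a type and less RNA per cell cannot be told apart. Summed over 19 endothelial markers, the signal was 22154 to 25539 in knockout-labelled CLP and 25509 to 27504 in knockout-labelled sham, against 30237 to 31372 in wild-type CLP and 30381 to 31846 in wild-type sham. The endothelial genes Pecam1, Cdh5 and Cldn5 had mean signals from 1155 to 3515 in knockout-labelled lungs. These 3 were picked from the 19 markers after their values were seen. Their log2 differences between CLP and sham there were 0.14, 0.34 and 0.25, none of them called, while the median of the list lay below 0. In the knockout-labelled response 7 of the 19 endothelial markers were called lower, against 19.9% of all genes. Among them were Kdr (-1.27), Clec14a (-1.13), Tek (-0.85) and Icam2 (-0.72). Called higher were 2, Esam (0.60) and Tal1 (0.70), against 11.4% of all genes. The median of the 19 was -0.21. With centred arrays 4 of these markers were called lower and 5 higher, against 9.27% and 23.7% of all genes.

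Promoters of 4 of the 10 genes were matched in RefSeq (GRCm38.p6), and Hey1, Hes1, Sox7, Sox17, Sox18 and Id1 were not matched. The stretches shown are the 250 bases before the start of each gene. Notch1, Jag1, Dll4 and Id3 are shown because they were the 4 genes matched. They lie at chr2:26503823-26504072 (minus strand), chr2:137116521-137116770 (minus strand), chr2:119325534-119325783 (plus strand) and chr4:136143572-136143821 (plus strand). Capitals mark the E-box CANNTG, the site class of helix-loop-helix factors, of which Jag1 held 1 match starting 82 bases before the start.
Notch1: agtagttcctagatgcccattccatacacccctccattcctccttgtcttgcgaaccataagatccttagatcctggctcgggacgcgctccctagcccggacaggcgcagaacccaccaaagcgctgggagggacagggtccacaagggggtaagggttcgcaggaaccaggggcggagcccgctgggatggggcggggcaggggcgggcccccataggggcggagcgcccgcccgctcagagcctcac
Jag1: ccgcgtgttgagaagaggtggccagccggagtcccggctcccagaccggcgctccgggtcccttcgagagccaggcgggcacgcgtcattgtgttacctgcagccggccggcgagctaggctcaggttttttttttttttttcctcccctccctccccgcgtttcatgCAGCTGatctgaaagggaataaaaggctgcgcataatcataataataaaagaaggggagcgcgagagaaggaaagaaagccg
Dll4: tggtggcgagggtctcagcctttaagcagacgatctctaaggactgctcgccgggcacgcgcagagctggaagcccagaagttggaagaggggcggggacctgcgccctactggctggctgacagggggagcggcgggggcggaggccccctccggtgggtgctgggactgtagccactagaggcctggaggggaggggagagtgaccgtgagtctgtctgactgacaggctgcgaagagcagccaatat
Id3: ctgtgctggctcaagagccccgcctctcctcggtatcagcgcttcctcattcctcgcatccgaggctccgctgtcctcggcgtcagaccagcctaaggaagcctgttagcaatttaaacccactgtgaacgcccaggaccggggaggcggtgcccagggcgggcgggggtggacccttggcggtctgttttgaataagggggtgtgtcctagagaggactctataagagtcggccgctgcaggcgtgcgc
Both strands were searched for this motif and for the core of the Notch nuclear partner RBPJ (TGGGAA), a SOX core (AACAAT) and a BMP-responsive SMAD element (GGCGCC), and no 2 matches overlapped. The last 3 had no match in these 4 windows. Of 32851 promoter windows of this length, 66.2% held an E-box, 21.6% the RBPJ core, 9.42% the SOX core and 9.59% the SMAD element. A match is a description of letters and not a site of binding.

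The question asked of these genes is how the lung's vascular regulators stand after abdominal sepsis in either genotype. In knockout-labelled lungs Hey1 and Sox17 fell after CLP, 2.33-fold and 2.38-fold, and the other 8 genes were not called. In wild-type lungs 7 of the 10 genes had every CLP array below every sham array, against 12.9% of all genes, and Sox17 was not among them. Since the list was drawn up with wild-type values known, nothing is read from that count. After either surgery Jag1 was higher in knockout-labelled lungs, and Id1 was lower there after sham. The share of genes called lower in the knockout-labelled response was 19.9% over all 11862 genes, so 2 of 10 lies near the background. The median log2 difference of the 10 genes in that response was -0.14, against -0.11 over all genes. This balance depends on the scaling: of the probe sets called, 35.6% were higher with the deposited scaling and 70.4% with arrays centred on their medians, which moved the median of all genes to 0.11. Hey1 (-0.995) and Sox17 (-1.03) were called lower with centring too, and Id1 (0.48, adjusted p = 0.017) and Notch1 (0.40, adjusted p = 0.019) were then called higher.

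**Figure D1:**
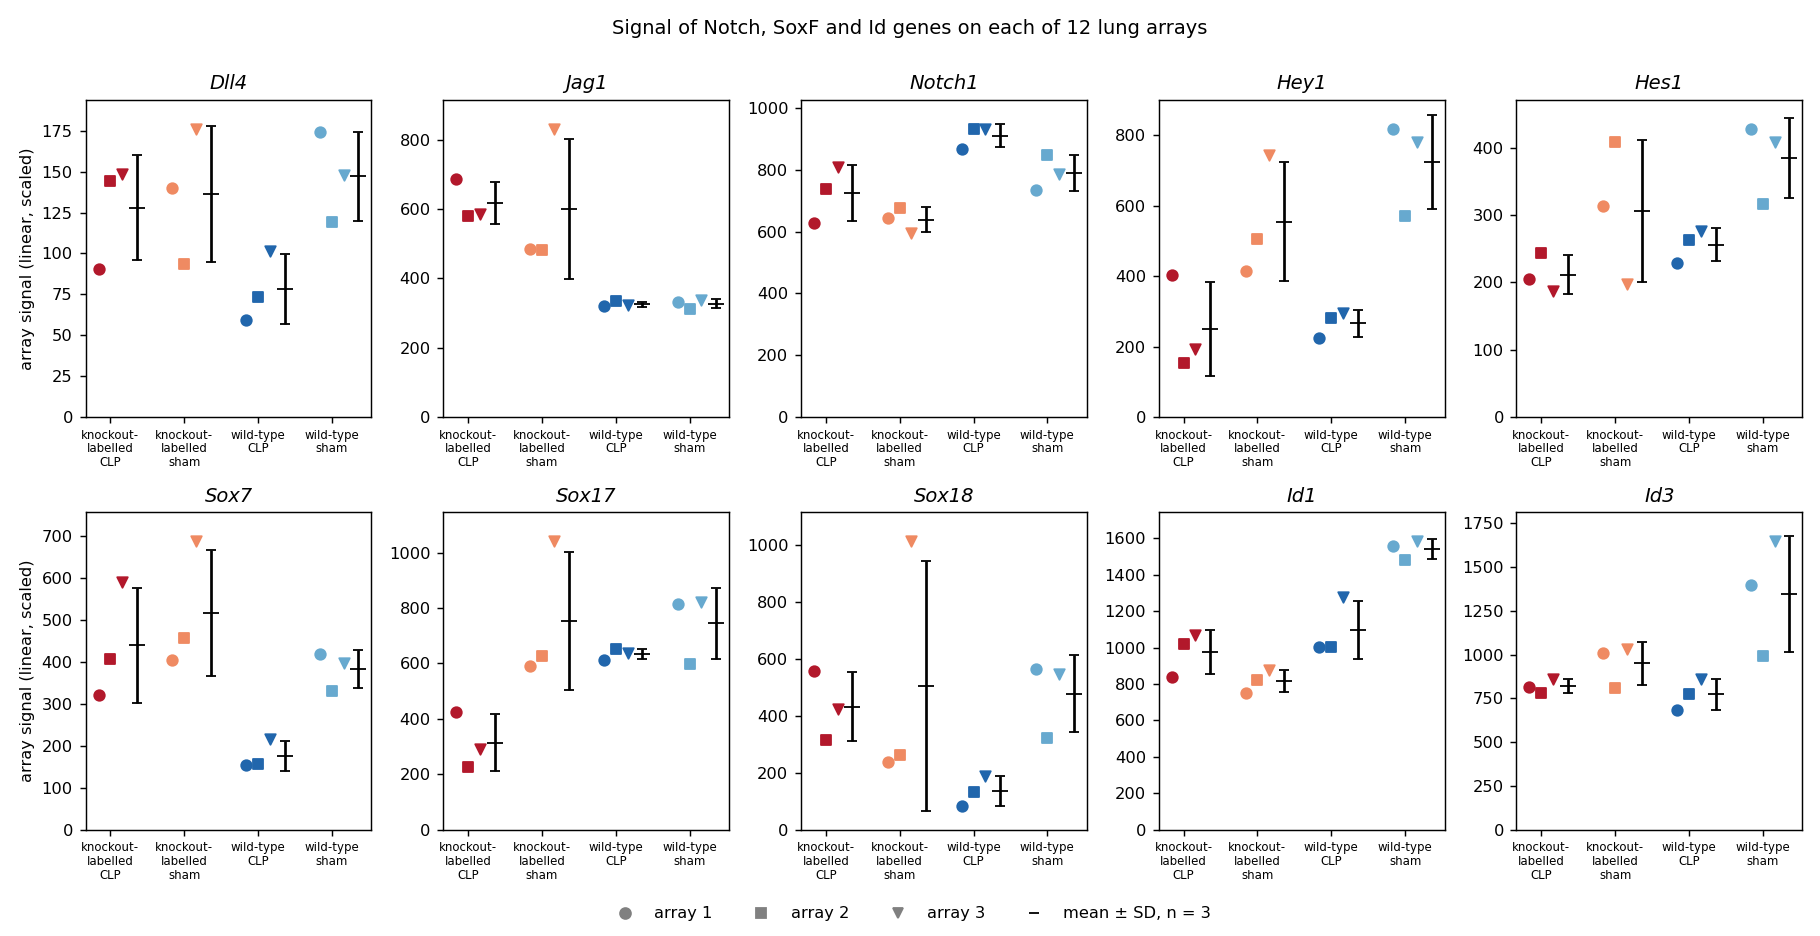
Array signal (linear, scaled to a common mean as deposited, vertical axes from 0) of the 10 genes on each of the 12 lung arrays, with circles, squares and triangles for arrays 1, 2 and 3 of a group and bars for the mean ± SD (n = 3). Hey1 lies lower after CLP in both genotypes, Sox17 in the knockout-labelled mice, and array 3 of knockout-labelled sham has the highest Sox18 signal of the series at 1014.

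The Notch ligands differed from each other. Dll4 (1421826_at), the ligand of endothelial tip cells and arteries, read 90.8, 145 and 148 in knockout-labelled CLP, against 140, 93.3 and 176 in knockout-labelled sham. These arrays overlapped throughout, and the log2 difference was -0.08 ± 0.27 (SE, adjusted p = 0.85; 95% interval -0.66 to 0.50). Wild-type Dll4 read 59.6, 73.2 and 102 after CLP, against 174, 119 and 148 after sham. There the groups did not overlap, with a log2 difference of -0.90 ± 0.27. Dll4 was not called between genotypes after CLP (log2 difference 0.69 ± 0.27, adjusted p = 0.070), though it was in 4 of 12 refits that omitted an array (lowest adjusted p = 0.024) and with array weights (0.011), and the difference between the 2 responses was 0.82 ± 0.38 (adjusted p = 0.22).

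Jag1 (1434070_at), a ligand of endothelium, smooth muscle and epithelium, differed by genotype label. It read 686, 580 and 586 in knockout-labelled CLP, against 483, 482 and 832 in knockout-labelled sham. Wild-type Jag1 read 320.5, 334 and 322 after CLP, against 331, 312 and 336 after sham. All 6 knockout-labelled arrays lay above all 6 wild-type arrays. The genotype difference was 0.91 ± 0.17 after CLP (adjusted p = 0.0024) and 0.82 ± 0.17 after sham (adjusted p = 0.011), and the difference after sham was not called without array 2 of wild-type sham (adjusted p = 0.051) or with only the 2 groups in the model (adjusted p = 0.060). The response to CLP was 0.09 ± 0.17 in knockout-labelled mice (adjusted p = 0.73). The divergent sham array carried the highest Jag1 value, and without it the response was 0.35 and was called (adjusted p = 0.019).

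Notch1 (1418634_at), the receptor, lay on the other side. It read 629, 737 and 809 in knockout-labelled CLP, against 644, 678 and 596 in knockout-labelled sham. In the wild type the values were 867, 934 and 931 after CLP, against 734, 849.5 and 787 after sham. Knockout-labelled arrays lay below the wild-type arrays after either surgery. The genotype difference was called after CLP (-0.33 ± 0.11, adjusted p = 0.031) but not after sham (-0.30 ± 0.11, adjusted p = 0.10). The call after CLP is not firm: when arrays were omitted in turn it held in 7 of 12 refits, and the largest adjusted p was 0.099. It was lost without array 1 or 2 of knockout-labelled CLP or any 1 array of wild-type CLP, with centring (adjusted p = 0.078), without the trend (0.056) and with only the 2 groups (0.056). The response to CLP was 0.18 ± 0.11 in knockout-labelled mice (adjusted p = 0.23), or 0.40 and called with centring (adjusted p = 0.019), and 0.21 ± 0.11 in the wild type.

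Of the Notch targets, Hey1 fell in knockout-labelled lungs and Hes1 did not pass the test. Hey1 (1415999_at), a repressor through which Notch acts in arterial endothelium, read 402, 154 and 194 in knockout-labelled CLP, against 416, 504 and 744 in knockout-labelled sham. No CLP array reached a sham array, although array 1 of CLP came close to array 1 of sham. The log2 difference was -1.22 ± 0.30 (adjusted p = 0.011), and it was called in 12 of 12 refits that omitted an array (-1.62 to -0.94) and not with only the 2 groups in the model (adjusted p = 0.065). Wild-type Hey1 read 223, 281 and 295 after CLP, against 819, 571 and 781 after sham. That response, which brought Hey1 to notice, was -1.42 ± 0.30, and the difference between the responses was 0.20 ± 0.43, with a 95% interval from -0.73 to 1.13.

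Hes1 (1418102_at), a repressor and Notch target in many tissues, read 205, 244 and 187 in knockout-labelled CLP, against 313, 408 and 198 in knockout-labelled sham. The groups overlap through the divergent sham array, which has the low Hes1 value. The log2 difference was -0.47 ± 0.22 (adjusted p = 0.12), and without that array it was -0.76 and was called (adjusted p = 0.0050). Wild-type Hes1 read 228, 264 and 277 after CLP, against 429, 317 and 409 after sham, a log2 difference of -0.57 ± 0.22 with no overlap. The difference between the responses was 0.10 ± 0.31 (adjusted p = 0.88).

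The 3 SoxF genes did not share a pattern over the 4 groups. Sox17 (1429177_x_at), a factor of arterial endothelium that is also found in ciliated airway cells, read 426, 226 and 292 in knockout-labelled CLP, against 592, 626 and 1042 in knockout-labelled sham. Every CLP array lay below every sham array. The fall was -1.25 ± 0.24 (adjusted p = 0.0025), and it was called in 12 of 12 refits that omitted an array. Without the divergent sham array it was -0.99 (adjusted p = 0.0038). In the wild type the arrays overlapped, with 614, 651 and 637 after CLP, against 814, 598 and 822 after sham (log2 difference -0.22 ± 0.24). After CLP, Sox17 was lower in knockout-labelled than in wild-type lungs (-1.05 ± 0.24, adjusted p = 0.0061). After sham there was little between them (-0.02 ± 0.24, adjusted p = 0.98). The difference between the responses, -1.03 ± 0.34, was not called (adjusted p = 0.097). It was called in 1 of 12 refits that omitted an array, which left out the first knockout-labelled CLP array (-1.28, adjusted p = 0.022), and with array weights (adjusted p = 0.0078).

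The summed signal of 9 ciliated cell markers was 3600 to 3895 in knockout-labelled CLP and 3530 to 5817 in knockout-labelled sham, and 4 of the 9 were called lower, or 7 without the divergent sham array. That of 9 smooth muscle and pericyte markers was 3850 to 4593 in knockout-labelled CLP and 4700 to 6063 in knockout-labelled sham, also with 4 called lower, or 1 with centring. Of all genes 19.9% were called lower in that response, or 9.27% with centring. Probe sets called either way numbered 7172, or 8767 without the divergent sham array. On 1 array, the divergent sham array, Sox17 was highest and the ciliated cell marker sum lowest. The part of these cells in the Sox17 and Hey1 values was not tested.

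Sox7 and Sox18, which share roles with Sox17 in vessel formation, had their lowest values in wild-type CLP. Sox7 (1416564_at) read 321, 407 and 591 in knockout-labelled CLP, against 406, 457 and 689 in knockout-labelled sham (log2 difference -0.24 ± 0.24, adjusted p = 0.47). It read 153, 156 and 217 in wild-type CLP, against 419, 331 and 398 in wild-type sham, a log2 difference of -1.12 ± 0.24. The wild-type CLP arrays were the lowest 3 of the 12. After CLP the genotype difference was 1.28 ± 0.24, with the knockout-labelled arrays above, and after sham it was 0.40 ± 0.24 with overlap.

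Sox18 (1449135_at), mutated in the ragged mouse with vessel and lymphatic defects, read 558, 316 and 423 in knockout-labelled CLP, against 239, 262 and 1014 in knockout-labelled sham. The response there was 0.07 ± 0.47 with the divergent sham array (adjusted p = 0.92) and 0.74 without it (adjusted p = 0.095). It was called in neither fit. Wild-type Sox18 read 83.4, 134 and 190 after CLP, against 565, 322 and 547 after sham, a log2 difference of -1.82 ± 0.47. After CLP it was higher in knockout-labelled than in wild-type lungs (1.68 ± 0.47, adjusted p = 0.018). That call was lost without array 1 of wild-type CLP (adjusted p = 0.077), array 2 of wild-type CLP (0.052) or array 1 of knockout-labelled CLP (0.053). The difference between the responses was 1.90 ± 0.67 (adjusted p = 0.12), and it was 2.56 and called when the divergent sham array was omitted (adjusted p = 0.0043).

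**Figure D2:**
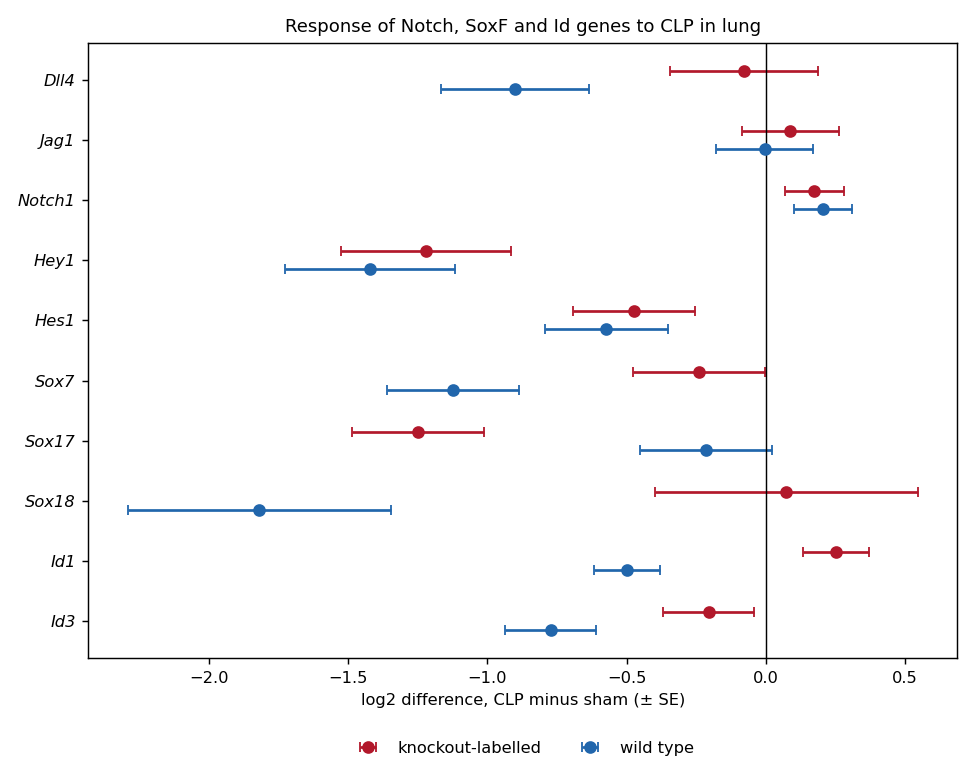
Log2 difference between CLP and sham (horizontal axis, ± SE of the fit) for each gene in knockout-labelled mice (red, upper) and wild-type mice (blue, lower). The knockout-labelled values lie between -1.25 and 0.25 and the wild-type values between -1.82 and 0.21, and Hey1 lies left of 0 in both.

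Both Id genes had their highest group mean in wild-type sham. Id1 (1425895_a_at), induced in endothelium by BMPs, read 838, 1020 and 1071 in knockout-labelled CLP, against 752, 822 and 875 in knockout-labelled sham (log2 difference 0.25 ± 0.12, adjusted p = 0.13, called with centring). In the wild type it read 1006, 1005 and 1279 after CLP, against 1560, 1479 and 1584 after sham, with no overlap and a log2 difference of -0.50 ± 0.12. After sham Id1 was lower in knockout-labelled lungs (-0.92 ± 0.12, adjusted p = 3.4e-04), also in 12 of 12 refits that omitted an array. After CLP the genotypes overlapped (-0.17 ± 0.12, adjusted p = 0.31). The responses differed by 0.75 ± 0.17 (adjusted p = 0.031), the only such difference called among the 7 genes other than Hey1, Sox7 and Id3, against 4.98% of all genes. That difference contains the wild-type response, known when the list was made, and is given as a description. It was called in 3 of the 12 refits that omitted an array, and the largest adjusted p, 0.098, came without array 2 of wild-type CLP.

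Id3 (1416630_at), a close relative that is also strong in lymphocytes, read 815, 780 and 861 in knockout-labelled CLP, against 1010, 808 and 1030 in knockout-labelled sham (log2 difference -0.21 ± 0.16, adjusted p = 0.37). In the wild type it read 682, 774 and 860 after CLP, against 1397, 991 and 1648 after sham. The wild-type groups did not overlap, with a log2 difference of -0.77 ± 0.16. The genotype difference was 0.09 ± 0.16 after CLP and -0.48 ± 0.16 after sham, with overlap after either surgery. The summed signal of 5 B cell markers was 452 to 536 in knockout-labelled CLP and 600 to 932 in knockout-labelled sham. It was 570 to 674 in wild-type CLP and 569 to 982 in wild-type sham. The sum of 6 T cell markers was 970 to 1289 in knockout-labelled CLP, against 343 to 590 in knockout-labelled sham. In the wild type it was 708 to 831 after CLP, against 439 to 500 after sham. The part of these cells in the Id3 values was not tested.

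Across the 10 genes in the wild type, the log2 differences ran from -1.82 for Sox18 to 0.21 for Notch1, with a median of -0.67 against -0.03 over all genes. The fit called 3 of them lower, Hey1, Sox7 and Id3, against 0.0590% of all genes, and 7 had every CLP array below every sham array, against 12.9% of all genes. Since wild-type values were known when the list was made, nothing is read from these shares. These calls sat near the threshold: Hey1 and Id3 kept theirs in 3 and Sox7 in 4 of 12 refits that omitted an array, and none of the 3 with centring. In knockout-labelled mice 2 genes had all CLP arrays below all sham arrays, against 24.5% of all genes. Notch1 was the 1 gene with all wild-type CLP arrays above sham. Neutrophil markers moved with CLP in both genotypes: the summed signal of 9 such genes was 43395 to 47326 in knockout-labelled CLP and 10741 to 26727 in knockout-labelled sham, against 34501 to 38009 in wild-type CLP and 9631 to 15995 in wild-type sham. Their part in the lower vascular transcripts was not tested.

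**Figure D3:**
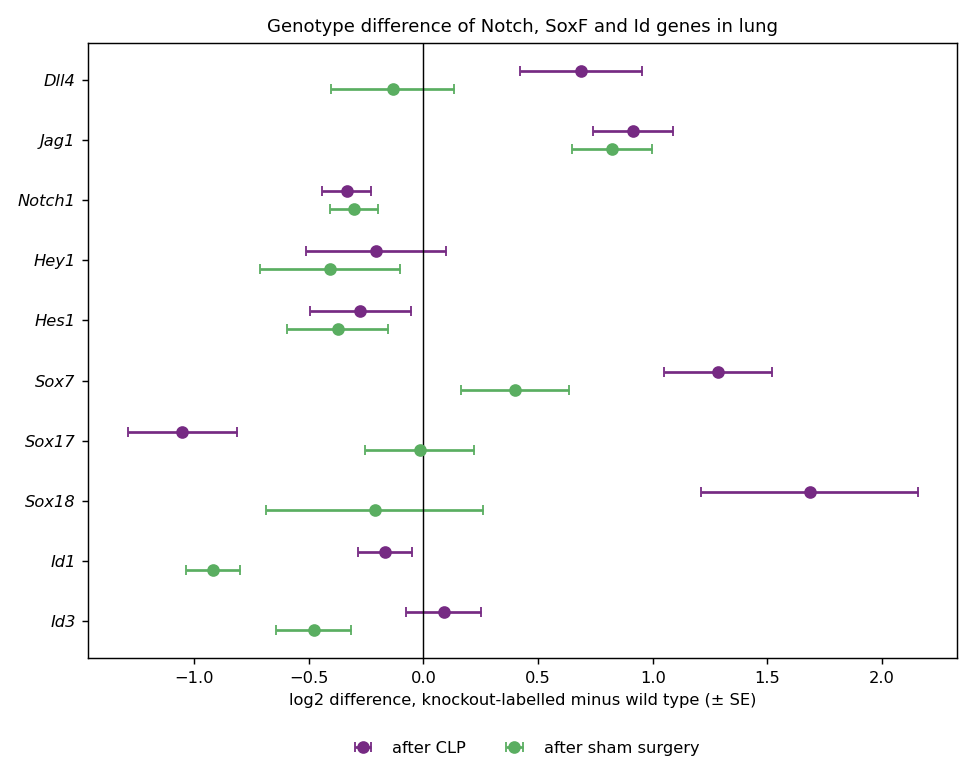
Log2 difference between knockout-labelled and wild-type mice (horizontal axis, ± SE of the fit) after CLP (purple, upper) and after sham surgery (green, lower). Jag1 lies right of 0 after either surgery (0.91 and 0.82), Notch1 left of it (-0.33 and -0.30), and Id1 is furthest left after sham (-0.92).

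Of the 7 genes other than Hey1, Sox7 and Id3, 4 were called between genotypes after CLP (Jag1 and Sox18 higher, Notch1 and Sox17 lower), against 31.8% of all genes, and 2 after sham (Jag1 higher, Id1 lower), against 8.76% of all genes. These comparisons share the wild-type arrays with the response described above, so low wild-type CLP or high wild-type sham values enter them too. Wild-type values were known when the list was made, so these counts and adjusted p-values are a description and not a test. Other tested probe sets of Jag1, Notch1 and Sox17 had the same sign where these genotype differences were called. For Jag1, 1421106_at differed by 1.71 ± 0.15 after CLP (adjusted p = 1.3e-05) and by 1.18 ± 0.15 after sham (adjusted p = 3.5e-04), and 1421105_at by 1.09 ± 0.25 after CLP (adjusted p = 0.0063) and by 0.52 ± 0.25 after sham (adjusted p = 0.24). Both of these Jag1 probe sets had all knockout-labelled CLP arrays above sham without being called in that response (log2 differences 0.38 and 0.25). A second Notch1 probe set, 1418633_at, differed by -1.35 ± 0.20 after CLP (adjusted p = 5.0e-04). It gave a smaller genotype difference after sham, -0.66 ± 0.20 (adjusted p = 0.061). The second Sox17 probe set, 1421657_a_at, fell by 1.16 ± 0.20 in the knockout-labelled response (adjusted p = 0.0013), and its wild-type CLP arrays lay below sham, with a log2 difference of -0.45. The suffix of 1429177_x_at marks possible cross-hybridisation, and that of 1421657_a_at alternative transcripts of the gene. The second Dll4 probe set was not called in either response or genotype comparison, and that of Sox7 read 2.01 to 14.7 on all arrays and did not pass the filter.

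Other genes of these pathways were described in the knockout-labelled response, from lists drawn up with earlier results known, and each count is that of the deposited scaling. Of 114 such genes tested, 34 were called lower and 11 higher, which is 29.8% and 9.65%, against 19.9% and 11.4% of all genes, and their median was -0.16 against -0.11. With centred arrays 14 were called lower and 21 higher. That is 12.3% and 18.4%, against 9.27% and 23.7% of all genes, and their median was 0.06 against 0.11. The 34 genes named here kept their sign with centring and with quantile normalisation. With centring 11 of them were no longer called (Notch4, Notch3, Rfng, Hes6, Efnb2, Sox11, Tcf12, Bmp6, Chrdl1, Bambi and Smurf2), and with quantile normalisation 3 (Notch3, Sox11 and Chrdl1). Among the other Notch ligands and receptors, 2 of 5 were called lower and 1 higher, with a median of -0.39. With centring none was called lower and 2 higher (median -0.17), and with quantile normalisation 1 was called lower. The receptors Notch4, an endothelial receptor (-0.45 ± 0.14, adjusted p = 0.031), and Notch3, the receptor of vascular smooth muscle (-0.39 ± 0.13, adjusted p = 0.041), fell. The ligand Dll1 rose by 2.03 ± 0.36 (adjusted p = 0.0017), with 184, 488 and 704 in knockout-labelled CLP, against 89.0, 90.7 and 106 in knockout-labelled sham. The CLP values of Dll1 were widely spread, and all lay above sham.

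Of 24 genes that process Notch or tune it, 10 were called lower and 2 higher, with a median of -0.23. Of all genes 19.9% were called lower and 11.4% higher, or 16.2% and 12.2% with quantile normalisation and 9.27% and 23.7% with centring. Of the 24 genes, 5 were called lower with quantile normalisation and 3 with centring, where the median was -0.0057. The ubiquitin ligase gene Mib2, which acts on ligands, fell by 1.06 ± 0.16 (adjusted p = 6.5e-04), and Dtx1 (-0.94) and the glycosyltransferase gene Rfng (-0.43) fell too. Furin, the protease that matures Notch receptors, rose by 0.87 ± 0.16 (adjusted p = 0.0023), and Dtx2 by 0.63. Of 10 genes of the nuclear complex, 1 was called, the co-repressor gene Tle1 (0.58 ± 0.15, adjusted p = 0.012), and the median was 0.05. In this group 3 were called higher with centring (median 0.27), 1 lower with quantile normalisation, and 2 lower and 2 higher with the divergent sham array omitted. In the Hes and Hey family 2 of 5 other members were called lower, Heyl (-0.80 ± 0.16, adjusted p = 0.0031) and Hes6 (-0.69), and the median was -0.21. With centring 1 was called lower, and the median was 0.019, or 0.022 with quantile normalisation. Of 11 arterial genes 3 were called lower, with a median of -0.36: the semaphorin and VEGF co-receptor Nrp1 (-0.87 ± 0.14, adjusted p = 0.0012), the lymphatic growth factor Vegfc (-0.94) and the arterial ligand Efnb2 (-0.36). Of 8 other Sox genes 3 were called lower, Sox6 (-1.20), Sox11 (-0.85) and Sox4 (-0.68), and Sox2, a factor of airway epithelium, was called higher (0.61), with a median of -0.45.

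Id2, the relative of Id1 and Id3 that is strong in innate lymphoid and myeloid cells, rose, while Id4 fell. Id2 read 2442, 3105 and 2487 in knockout-labelled CLP, against 970, 1060 and 1159 in knockout-labelled sham (1.33 ± 0.12, adjusted p = 4.6e-05). It read 2550, 2014 and 2213 in wild-type CLP, against 1532, 1343 and 1644 in wild-type sham, so that CLP arrays lay above sham arrays in either genotype. The log2 difference of Id4 was -0.75 ± 0.17 (adjusted p = 0.0066). Of 6 genes in this group 2 were called lower, Id4 and the E protein gene Tcf12 (-0.25), and 1 higher, with a median of -0.20. With the divergent sham array omitted, or with centring (median 0.028), 1 was called lower. The shares of all genes called lower and higher were 19.9% and 11.4%, or 9.27% and 23.7% with centring. The macrophage marker sum was 9173 to 9833 in knockout-labelled CLP and 3287 to 9643 in knockout-labelled sham, against 3090 to 3221 in wild-type CLP and 2766 to 3076 in wild-type sham, and its part in the Id2 values was not tested.

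In the BMP pathway, which induces Id genes, 3 of 12 ligands and antagonists were called lower and 1 higher (median -0.10), and 3 of 16 receptors and SMADs lower and 1 higher (median -0.19). The ligands Bmp2 (-1.17 ± 0.29, adjusted p = 0.0096) and Bmp6 (-0.84 ± 0.23, adjusted p = 0.016) and the antagonist gene Chrdl1 (-0.67) fell, and the antagonist gene Fst rose (0.82 ± 0.24, adjusted p = 0.021). Smad1, the transducer of BMP signals, rose by 1.18 ± 0.11 (adjusted p = 5.1e-05), with 1300.5, 1470.3 and 1161 in knockout-labelled CLP, against 558, 654 and 513 in knockout-labelled sham. The inhibitors Bambi (-0.51), Smad7 (-0.80) and Smurf2 (-0.52) fell. With centring 1 of the ligands and antagonists was called lower and 2 higher (median 0.13), and 1 of the receptors and SMADs lower and 4 higher (median 0.034). Receptors and SMADs called higher numbered 3 with the divergent sham array omitted and 2 with quantile normalisation. Over all genes, 19.9% were called lower and 11.4% higher, or 9.27% and 23.7% with centring.

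Of 18 other endothelial transcription factors 6 were called lower and 3 higher, against 19.9% and 11.4% of all genes, with a median of -0.15. With centring 3 were called lower and 6 higher, against 9.27% and 23.7% of all genes, and the median was 0.08. Nr2f2, the factor of venous identity, fell by 1.36 ± 0.13 (adjusted p = 6.0e-05), with 167, 160 and 149 in knockout-labelled CLP, against 471, 422 and 352 in knockout-labelled sham. Its arrays were tightly grouped and far apart between surgeries. Mef2c fell by 1.65 ± 0.25 (adjusted p = 8.2e-04) and Tbx3 by 0.87 ± 0.19 (adjusted p = 0.0056). Ets1 rose by 0.89 ± 0.12 (adjusted p = 4.1e-04) and Tal1, which also marks blood cell precursors, by 0.70 ± 0.16 (adjusted p = 0.0065). With the divergent sham array omitted 6 of these factors were called higher and 5 lower.

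**Figure D4:**
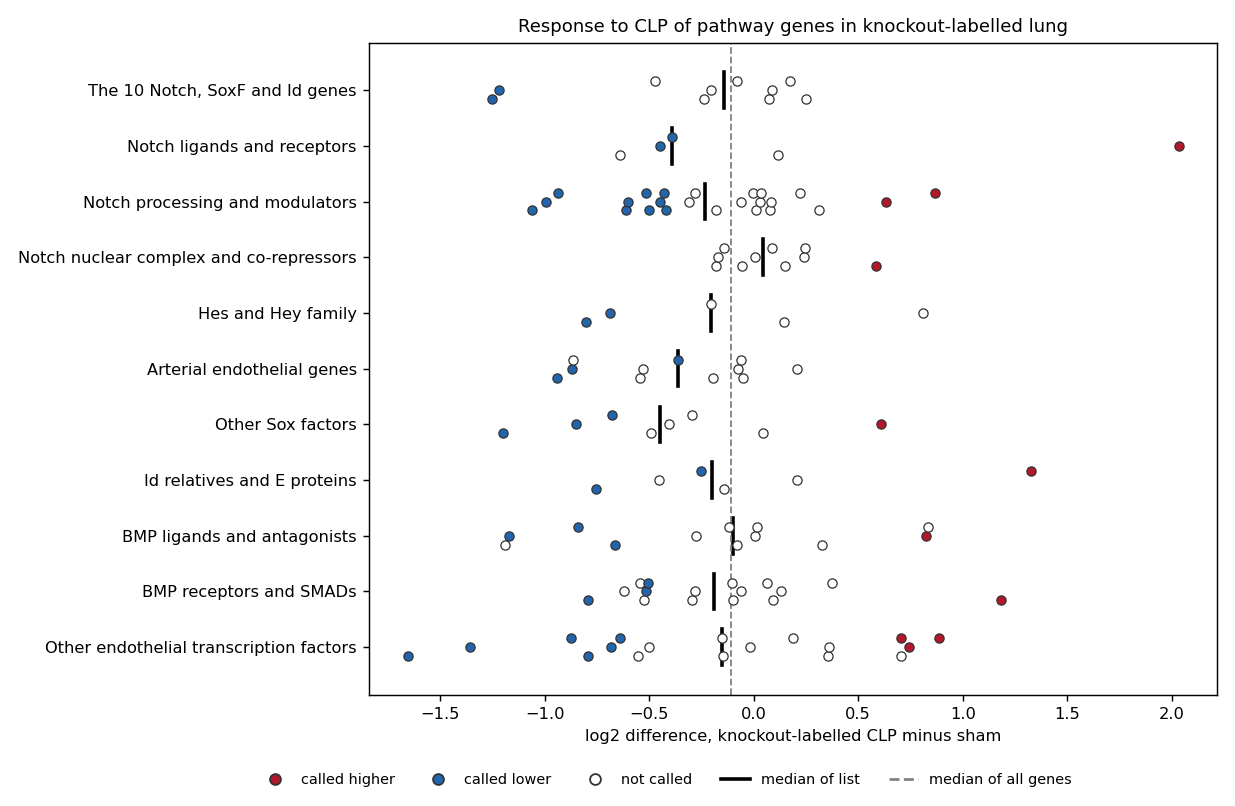
Log2 difference between CLP and sham in knockout-labelled mice (horizontal axis) for the 10 genes in the top row and for other genes of their pathways below, 1 point a gene, filled where called at an adjusted p under 0.05 (red higher, blue lower). Thick bars are list medians and the dashed line is the median of all genes at -0.11; the 10 genes have 2 filled points, Hey1 and Sox17.

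The 10 genes did not vary as 1 unit. Over 12 arrays, which share group, RNA sample and scaling, their 45 pairwise Pearson correlations of log2 signal ran from -0.78, for Jag1 with Notch1, to 0.84, for Dll4 with Sox7, with a median of 0.26, and 30 were above 0. With each group's mean removed the median was 0.27 and again 30 were above 0. By Pearson correlation over 12 arrays among 11852 other genes, the pattern most like Notch1 was that of Skil (r = 0.94), followed by Itprip and Actg1 (0.93 and 0.92). For Sox17 it was Sdhaf4 and Eif2d (0.98 each), with Calcrl, a receptor for adrenomedullin and calcitonin gene-related peptide, next (0.98). For Id1 it was Pfdn6 (0.93), Mtm1 (0.91) and Socs7 (0.90).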

How the data were processed

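Probe-set signal was measured in 12 lung samples. Per the labels' protocols, biotin-labelled cRNA was hybridised to Affymetrix arrays, and the submitters' processing notes name GCOS, MAS5 and Affymetrix Expression Console without role or version. The deposited values are linear signal intensities that had been scaled, since the mean signal without the top and bottom 2% was 150.001 on every array. Array medians after this scaling ran from 31.1 to 34.1 on the CLP arrays and from 35.2 to 38.4 on the sham arrays, so they differed with surgery. The number of arrays limits the precision.

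From these, 64 control probe sets were left out and log2 of signal plus 3.47 (10% of the median array median) was taken. A probe set was tested if above the array median on at least 3 arrays, which left 24574. Groups came from the labels. Symbols came from the platform table, updated through RefSeq (34741 of 34945 probe sets with 1 symbol matched; 932 had several symbols and 9160 none). Other genes were represented by their brightest tested probe set.

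A linear model with 4 group means, contrasts and an intensity trend was fitted with limma 3.58.1 in R 4.3.3 over all 24574 probe sets, with Benjamini-Hochberg adjustment within each contrast, and called at an adjusted p under 0.05. Every adjusted p in the text is from limma, and ± on a log2 difference is its SE. The step was tested on simulated data. Members and lists were chosen with earlier results of these data known. Genes outside the 10 were named by a rule: per list, up to 4 called with the smallest p and up to 2 called the other way, and for likeness the 3 highest correlations with the brightest gene of each family. Pecam1, Cdh5, Cldn5, Kdr, Clec14a, Tek, Icam2 and Esam were named after their values were seen. Alternatives were quantile normalisation, median centring, a pseudocount of 50%, other filters, no trend, array weights, only the 2 groups compared, the replicate number as a block, other probe sets, and each array left out. The replicate numbers did not pair the samples: correlations of deviations between same-numbered arrays ran from -0.10 to 0.12.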

Additional observations from a re-analysis of the deposited data

Results flagged for a closer look

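The difference between the CLP responses of the 2 genotypes, knockout-labelled minus wild type, passed the limma test for Id1 (0.75 ± 0.17 SE, adjusted p = 0.031), which lay at 0.25 in knockout-labelled and -0.50 in wild-type mice. An adjusted p under 0.05 was also reached by 12 of the 34 pathway genes named above, against 4.98% of all genes. Below 0 were Mef2c (-1.55, adjusted p = 0.035), Vegfc (-1.41, 0.037), Nr2f2 (-1.33, 0.0072), Mib2 (-1.18, 0.019), Nrp1 (-1.05, 0.022), Heyl (-0.91, 0.042), Efnb2 (-0.65, 0.046) and Bambi (-0.60, 0.038). Above 0 were Sox2 (1.08, 0.049), Smad1 (0.89, 0.014), Ets1 (0.75, 0.033) and Id2 (0.74, 0.034). These 12 were named for their calls in the knockout-labelled response, which the difference contains, so passing was favoured by the naming. Their number and their adjusted p-values are a description and not a test. For Id1 the difference contains the wild-type response, known when the list was made, and is a description too.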

How the results depend on the processing

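Every difference called among the 10 genes kept its sign under each alternative that gave a value. With the pairing by replicate number as a block, 2 of the 10 genes were called lower in the knockout-labelled response, with Hey1 at -1.22 (adjusted p = 0.013) and Sox17 at -1.25 (0.0025), and no count of called genes moved by over 1.5 times; single calls changed for Hey1 and Id1 in the wild-type response and Id3 between genotypes after sham. Genes called lower in the wild-type response were 3, but 0 with centred arrays, no filter or no trend, 1 with the filter of 9 arrays, and 7 with array weights or only the 2 groups compared. Differences of responses called were 1, but 0 with no trend or suffixed probe sets left out, and 5 with array weights. In the knockout-labelled response 1 gene was called lower with only the 2 groups compared and 1 with suffixed probe sets left out (which leaves no value for Sox17 and Id1), and after sham 1 between genotypes in each of these settings. With 1 array left out, genes called lower ran from 2 to 3 in the knockout-labelled response and 0 to 5 in the wild type, and genes called either way 2 to 2 and 3 to 6 between genotypes after sham and CLP (all 10 genes counted) and 0 to 3 for the difference of responses. In the knockout-labelled response the median of all probe sets was 0.10 with centring, against -0.12 with the deposited scaling; of the differences of responses called, 66.4% were above 0 with centring, against 41.8%. Signs of values not called turned as follows: Dll4 in the knockout-labelled response was 0.047 with quantile normalisation, 0.15 with centring, 0.16 with array weights, 0.068 with its second probe set and -0.32 to 0.14 with 1 array left out. In that response Id3 was 0.020 with centring, Notch1 -0.060 with its second probe set, and with 1 array left out Jag1 ran from -0.043 to 0.35 and Sox18 from -0.29 to 0.74. Wild-type Jag1 was 0.0025 with quantile normalisation and 0.10 with centring, and -0.035 to 0.019 with 1 array left out. Between genotypes after sham, Sox17 was 0.020 with quantile normalisation and -0.27 to 0.13 with 1 array left out, Dll4 -0.34 to 0.11 and Sox18 -0.88 to 0.15; after CLP Hey1 ran from -0.61 to 0.078. The difference of responses of Notch1 was 0.088 with centring and -0.11 to 0.067 with 1 array left out, and ran from -0.18 to 0.33 for Hes1, -0.20 to 0.48 for Hey1 and -0.040 to 0.35 for Jag1. Probe sets called numbered 7172 in the knockout-labelled response (2669 with only the 2 groups), 233 in the wild type (1308 with array weights, 1281 with only the 2 groups), 2050 and 7246 between genotypes after sham and CLP (4071 after sham with array weights) and 995 for the difference (5834 with array weights, 557 with no filter, 580 with suffixed probe sets left out). With 1 array left out they ran from 4977 to 8767, 51 to 432, 1130 to 2599, 4553 to 9004 and 107 to 3284 in that order. The cause of these shifts was not tested. The difference of responses has no fit with only the 2 groups.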
